A study of Drosophila melanogaster with 17 samples.

Results

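The gain of Scute was set against the loss of Daughterless in the progenitor cells of the adult Drosophila midgut, gene by gene. For each gene the log2 change with scute overexpression against the controls of its own batch was taken, the log2 change with da knock-down against the controls of the other batch was subtracted, and the result is called the difference. A positive difference means that a gene stood higher relative to its controls with scute than with da loss. The comparison used 12 of 17 libraries and tested 14083 of 17807 listed genes. Genes were then described by class, as moved oppositely (called in both comparisons with unlike signs, and called for the difference) or alike (called in both with the same sign). Values introduced with "changed by" are log2 changes against the controls of the same batch, and levels are CPM, counts scaled to the library size after TMM normalisation, so that summed CPM are not shares of reads.

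The series profiled messenger RNA of sorted esg+ cells by sequencing. All flies carried esg-Gal4, UAS-GFP and tub-Gal80[ts], so that GFP marks stem cells and enteroblasts, and the transgenes of adult flies were switched on by 2 days at 29 °C after growth at 18 °C. The 3 libraries with scute overexpression also carried UAS-scute, and were set against 3 control libraries of batch 2 without it. The 3 libraries with da knock-down also carried UAS-da-RNAi, and were set against 3 control libraries of batch 1 without it. Each library came from its own pool of 100 midguts with 20000 to 40000 sorted cells, and the RNA was amplified. The driver is active in all esg+ cells, so stem cells and enteroblasts were not separated, and each condition rests on the 1 transgene that its label names. The labels give neither the sex of the flies nor their age beyond the shift in adulthood.

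Daughterless is the only E protein of the fly, and proneural proteins such as Scute bind DNA as dimers with it. Extramacrochaetae (Emc) pairs with either partner and keeps it from DNA. In the midgut, Scute drives progenitors toward the enteroendocrine fate, and Notch signalling between neighbours, read out by the HES repressors of the Enhancer of split complex, holds that fate in check. Loss of Da removes the partner of every proneural protein at once, whereas added Scute supplies more of a single one.

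The libraries of batch 2 held 54713908 to 66679229 assigned reads and those of batch 1 33889877 to 40868714, with counts for 15858 to 16238 and 11483 to 12210 genes. Batch 2 was read as pairs and each mate was counted, so its counts are not independent molecules and levels are not compared between batches. Control replicate 3 of batch 1 stood apart from the other 2 controls, with 523 CPM summed over 35 mitosis genes against 876 and 771 CPM. Scute replicate 3 stood apart with 13601 CPM summed over the heat shock genes, against 5075 and 5945 CPM in the other scute libraries. The progenitor markers esg, Dl and klu were read in every library. Markers of other tissues were summed. Muscle markers gave 409 to 511 CPM in scute libraries and 852 to 978 CPM in controls of batch 2, and 844 to 1161 CPM in knock-down libraries and 659.5 to 1233 CPM in controls of batch 1. Malpighian tubule markers gave 55.4 to 66.3 CPM in scute libraries and 19.7 to 25 CPM in controls of batch 2, and 5.49 to 7.39 CPM in knock-down libraries and 5.06 to 5.75 CPM in controls of batch 1. Haemocyte markers gave 76.6 to 83 CPM in scute libraries and 114 to 125 CPM in controls of batch 2, and 283 to 314 CPM in knock-down libraries and 200.3 to 264 CPM in controls of batch 1. As shares of assigned reads they overlapped in both comparisons, at 0.0118% to 0.0129% with scute and 0.0127% to 0.0144% in its controls. With da knock-down they were 0.0191% to 0.0194%, and 0.0168% to 0.0215% in its controls. Germline markers gave 10.7 to 13.5 CPM in scute libraries and 7.74 to 8.85 CPM in controls of batch 2, and 1.98 to 2.76 CPM in knock-down libraries and 4.46 to 9.16 CPM in controls of batch 1, without overlap in either comparison. In batch 1 this gap came from piwi, whose levels are given below, and without piwi the germline sums overlapped. Fat body markers gave 17.3 to 26.8 CPM in scute libraries and 12.6 to 14.4 CPM in controls of batch 2, without overlap. In batch 1 they overlapped, at 3.92 to 15.9 CPM in knock-down libraries and 9.73 to 15.1 CPM in controls. Tracheal sums stayed under 27 CPM in every library. The part of cells of other tissues in the results was not tested.

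The targeted genes were read first. da stood at 37.1, 28.6 and 44.8 CPM in knock-down libraries and 123, 143 and 178 CPM in controls of batch 1, a log2 change of -2.01 ± 0.15 (SE, adjusted p = 1.27e-07). With scute, da gave 69.6, 67.6 and 67 CPM in scute libraries and 59.1, 61.2 and 61.7 CPM in controls of batch 2, a log2 change of 0.17 ± 0.15 (SE, adjusted p = 0.42). The knock-down libraries lay below all their controls, while the scute change of da was not called. sc read 1377, 1386 and 2078 CPM in scute libraries and 1.35, 1.38 and 1.43 CPM in controls of batch 2, where the transgene's own reads cannot be separated from the gene's. In knock-down libraries the same gene read 9.12, 8.48 and 10.6 CPM, against 4.39, 3.89 and 2.78 CPM in controls of batch 1, with no overlap and a log2 change of 1.35 ± 0.21 (SE, adjusted p = 0.000172). emc gave 74.1, 72.3 and 54.5 CPM in scute libraries and 31.2, 37.2 and 48.6 CPM in controls of batch 2, and 17.8, 13.4 and 17.6 CPM in knock-down libraries and 51.8, 48.1 and 44.3 CPM in controls of batch 1. emc rose with scute and fell with da loss, and its difference was 2.34 (95% interval 1.87 to 2.82, adjusted p = 2.69e-07).

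Over all genes tested with edgeR's quasi-likelihood test and Benjamini-Hochberg adjustment at 0.05, 2953 genes rose with scute (21.0%) and 2992 fell (21.2%), 42.2% in all. With da loss 1330 genes rose (9.44%) and 1181 fell (8.39%), 17.8% in all. The difference was called for 5024 genes (35.7%), higher with scute gain for 2361 (16.8%) and lower for 2663 (18.9%). Of the 1620 genes called in both comparisons, 1099 (7.80% of genes tested) moved oppositely and 521 (3.70%) moved alike. The opposite movers were 532 genes that rose with scute and fell with da loss (3.78%) and 567 that fell with scute and rose with da loss (4.03%). The alike movers were 321 genes that rose in both (2.28%) and 200 that fell in both (1.42%). sc itself is counted among the 321, though its reads with scute cannot be separated from the transgene's. Counted the other way, 45% of the genes that fell with da loss rose with scute (21.0% of all genes did). Of those that rose with da loss, 42.6% fell with scute (21.2% of all genes did). Among genes at 0.5 CPM or more in the knock-down or control mean of batch 1, these shares were 44.9% (24.6% of all such genes) and 43.9% (32.5%). Over all genes tested without sc and da, the Pearson correlation of the log2 changes was -0.152. The libraries are pools of sorted cells, in which fewer cells of a type and less RNA per cell cannot be told apart. Without control replicate 2 of batch 1 the genes lower with scute and higher with da loss numbered 358 in place of 567, and over all single libraries left out the oppositely moved genes ranged over 737 to 1113. Without control replicate 3 of batch 1, 1113 genes moved oppositely and 537 alike, and without scute replicate 3, 1055 and 509.

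**Figure D1:**
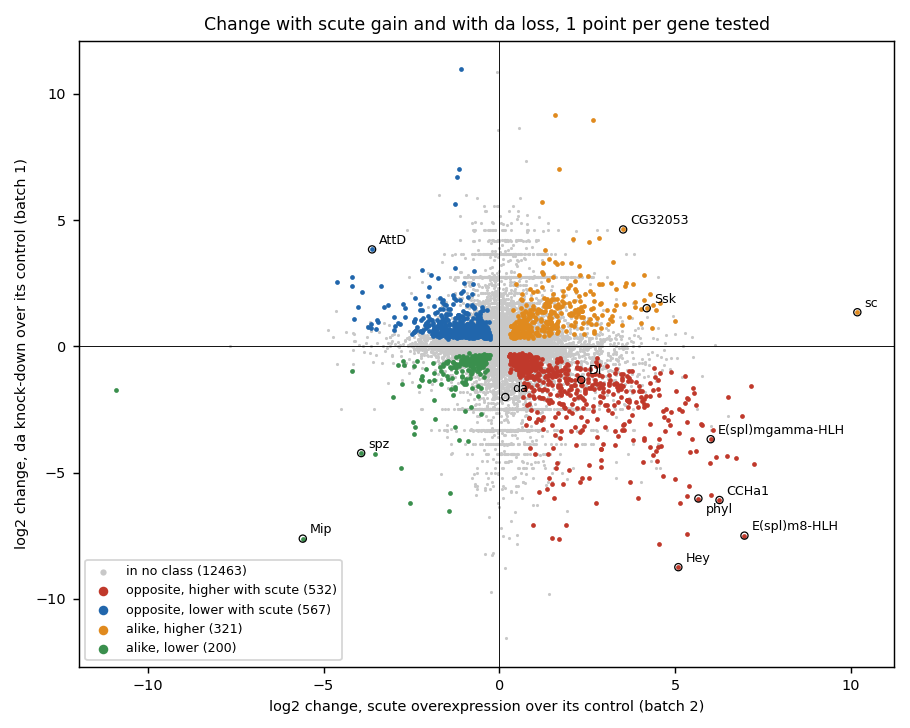
Each point is a gene, with its log2 change with scute overexpression against controls of batch 2 on the horizontal axis and its log2 change with da knock-down against controls of batch 1 on the vertical axis, coloured by class. The 532 and 567 oppositely moved genes fill the lower right and upper left, the 321 and 200 genes that moved alike fill the upper right and lower left, and horizontal stripes are genes with very few counts in batch 1. The 321 include sc, whose reads with scute cannot be separated from the transgene's.

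Libraries overlapped in neither comparison for 94.5% of the genes that rose with scute and fell with da loss and 96.1% of those that did the reverse. It was 94.4% of those that rose in both and 97% of those that fell in both. A gene entered a class only if called in both comparisons, so these shares follow largely from that choice and are no support for the classes. The 6 genes named for each class were taken only from genes without overlap, so their separation was fixed by the choice. The classes are described by their medians. The genes that rose with scute and fell with da loss had median log2 changes of 1.66 with scute and -1.34 with da loss, and median control levels of 4.79 CPM in batch 2 and 5.69 CPM in batch 1. Those that fell with scute and rose with da loss had median log2 changes of -0.98 with scute and 0.61 with da loss, and median control levels of 81.2 CPM in batch 2 and 115 CPM in batch 1. The genes that rose in both had medians of 1.32 and 1.17, and those that fell in both had medians of -0.78 and -0.69, with scute and with da loss. Over all genes tested the medians were 0.05 with scute and 0.00 with da loss.

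The genes that rose with scute and fell with da loss included genes of sensory and enteroendocrine commitment. Of 22 genes of proneural commitment tested, 19 had a positive difference (16.8% of all genes did) and 8 rose with scute and fell with da loss, with median log2 changes of 1.25 with scute and -0.88 with da loss. phyl encodes the adaptor that brings the repressor Tramtrack to the ubiquitin ligase Sina, and so frees neural and enteroendocrine fate. It read 119.7, 114 and 108 CPM in scute libraries and 2.72, 2.14 and 1.89 CPM in controls of batch 2, and 0.0374, 0.08 and 0.0429 CPM in knock-down libraries and 4.42, 4.33 and 2.08 CPM in controls of batch 1. The log2 changes were 5.66 ± 0.25 (SE, adjusted p = 2.50e-11) with scute and -6.03 ± 0.44 (SE, adjusted p = 6.86e-08) with da loss, and the difference was 11.69 (95% interval 10.72 to 12.65, adjusted p = 5.89e-12). ase, a proneural bHLH gene of the achaete-scute complex, read 74.3, 67.6 and 46.5 CPM in scute libraries and 1.01, 0.929 and 0.849 CPM in controls of batch 2. In knock-down libraries it read 0.0747, 0.04 and 0.0859 CPM, against 1.14, 0.717 and 0.198 CPM in controls of batch 1, a level already near 1 CPM or less. Its groups overlapped in neither comparison and its difference was 9.40 (95% interval 8.07 to 10.73, adjusted p = 5.80e-09).

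Other commitment genes moved with them. The Snail family zinc finger gene sna read 285, 256 and 148 CPM in scute libraries and 4.47, 5.8 and 5.81 CPM in controls of batch 2, and 1.91, 2.68 and 2.06 CPM in knock-down libraries and 39.9, 50.3 and 30 CPM in controls of batch 1. sna separated in both comparisons and had a difference of 9.60 (95% interval 8.82 to 10.37, adjusted p = 4.31e-12). Its relative wor changed by 4.54 with scute and -1.91 with da loss. nerfin-1, a zinc finger gene of early neurons, changed by 5.75 with scute and -3.12 with da loss. insb, which encodes a nuclear repressor of Notch target genes, changed by 7.23 with scute and -4.68 with da loss. Some genes known from asymmetric division were in the same class and others were not. mira, whose product carries fate determinants to one daughter cell, changed by 0.85 with scute and -2.28 with da loss, pon (partner of Numb) by 1.99 with scute and -2.55 with da loss, and spdo, which aids Notch signalling after asymmetric division, by 4.04 with scute and -2.01 with da loss. baz, which works in the same process, fell in both, and aPKC was called with da loss only, as described with the polarity genes. neur (neuralized), the ubiquitin ligase of Notch ligands, rose by 2.43 with scute and had a log2 change of -0.45 (adjusted p = 0.109) with da loss, which was -0.68 (adjusted p = 0.0206) without knock-down replicate 3. It shares 38.83% of its exon bases with an antisense gene, and counting ignored strand. Among bHLH genes, Fer1 changed by 6.72 with scute and -4.41 with da loss and dimm, which drives the peptidergic secretory state, by 2.78 with scute and -2.89 with da loss. stan, the atypical cadherin Flamingo of planar polarity, read 111, 107 and 91.6 CPM in scute libraries and 3.16, 2.24 and 2.04 CPM in controls of batch 2, and 0.112, 0.08 and 0.0429 CPM in knock-down libraries and 4.89, 4.39 and 2.02 CPM in controls of batch 1. The difference of stan was 10.90 (95% interval 9.86 to 11.94, adjusted p = 5.70e-11).

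Some enteroendocrine genes were in the same class and others were not. Of 16 enteroendocrine regulators tested, 9 had a positive difference, 5 rose with scute and fell with da loss, and 1 fell in both. Their median log2 changes were 1.61 with scute and -0.58 with da loss. The homeodomain gene pros, the marker of enteroendocrine cells, read 375, 389 and 519 CPM in scute libraries and 28.9, 35 and 29.8 CPM in controls of batch 2, and 2.17, 2.44 and 1.42 CPM in knock-down libraries and 18.9, 13.9 and 6.97 CPM in controls of batch 1. pros did not overlap in either comparison and its difference was 6.49 (95% interval 5.62 to 7.36, adjusted p = 3.29e-09). tap, also taken as an enteroendocrine marker, changed by 1.41 with scute (adjusted p = 0.0275) and 1.83 with da loss (adjusted p = 0.153). The scute call of tap was lost in 4 settings (adjusted p 0.0665 to 0.479). Of 12 peptide hormone genes tested, 6 had a positive difference, 5 rose with scute and fell with da loss, and Mip fell in both. The 5 became 3 without control replicate 1 of batch 1, without knock-down replicate 2 and with the 12 libraries alone. With scute 8 hormone genes rose, and 5 did without scute replicate 3. The scute call of Dh31 was lost in 9 settings (adjusted p 0.0564 to 0.216). CCHa1, a gut peptide hormone, read 604, 660.2 and 840 CPM in scute libraries and 3.78, 7.35 and 16.2 CPM in controls of batch 2. In knock-down libraries CCHa1 read 0.187, 1.56 and 0.215 CPM, against 50.4, 59 and 24.7 CPM in controls of batch 1. The difference of CCHa1 was 12.35 (95% interval 10.44 to 14.26, adjusted p = 1.42e-08). AstA changed by 6.15 with scute and -4.38 with da loss and AstC by 4.11 with scute and -2.29 with da loss. Summed over the hormone genes, levels were 3335 to 5694 CPM in scute libraries and 3184 to 3480 CPM in controls of batch 2, and 227 to 407 CPM in knock-down libraries and 349 to 441 CPM in controls of batch 1. How many enteroendocrine cells the sorts held was not tested. Tk, the tachykinin gene, read 346, 439 and 529 CPM in scute libraries and 227, 261 and 254 CPM in controls of batch 2, and 12.9, 15.9 and 3.56 CPM in knock-down libraries and 14.4, 22.1 and 15.9 CPM in controls of batch 1, and none of its changes was called (adjusted p = 0.215 with scute and 0.439 with da loss). The difference of Tk was called with replicate number as a block (adjusted p = 0.0475, and 0.0392 with the block in batch 1 only) and in a fit of the 12 libraries alone (0.0321), and its scute rise was called with each batch fitted on its own (0.00201). NPF, neuropeptide F, had log2 changes of -1.06 with scute (adjusted p = 0.197) and 1.04 with da loss (adjusted p = 0.307). Its scute fall was called with each batch fitted on its own (adjusted p = 0.000621). The difference of NPF, -2.10 (adjusted p = 0.0763), was called with DESeq2 (0.0481), with the 12 libraries alone (0.0267), without control replicate 3 of batch 1 (-2.78, adjusted p = 0.0254) and without knock-down replicate 3 (-2.63, adjusted p = 0.0131). Of 22 genes of prohormone processing and exocytosis, 18 had a positive difference and 18 rose with scute, while 7 fell with da loss. The synaptobrevin gene nSyb changed by 3.60 with scute and -1.79 with da loss and the Rab effector gene Rph by 4.01 with scute and -1.78 with da loss. Without control replicate 1 of batch 1 the genes of this list that rose with scute and fell with da loss numbered 2 in place of 6, and those that fell with da loss 3 in place of 7.

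Npc2b and Npc2a both fell with da loss, and Npc2b also rose with scute. Npc2b, of the family of sterol-binding lysosomal proteins, read 393, 408 and 479 CPM in scute libraries and 2.09, 5.67 and 12.1 CPM in controls of batch 2, and 0.336, 1.6 and 0.129 CPM in knock-down libraries and 63.6, 43.8 and 16.3 CPM in controls of batch 1. Its difference was 11.90 (95% interval 9.80 to 14.00, adjusted p = 6.31e-08). Npc2b ends at position 14092425 of chromosome 3R, and its neighbour CCHa1 begins at 14092504 on the other strand. Their levels ran in parallel over the libraries. Counting ignored strand, and whether transcripts of either gene ran into the other was not tested. Npc2a read 96.6, 99.9 and 95.7 CPM in scute libraries and 83.8, 81.8 and 91 CPM in controls of batch 2, and 46.5, 44.7 and 32.5 CPM in knock-down libraries and 293, 255 and 245 CPM in controls of batch 1. For Npc2a only the da loss change was called, at -2.68 ± 0.14 (SE, adjusted p = 1.62e-09), and the difference between the changes was 2.87 (95% interval 2.46 to 3.27, adjusted p = 5.84e-09). With a stricter filter on low counts its scute rise of 0.29 was called too (adjusted p = 0.0497).

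**Figure D2:**
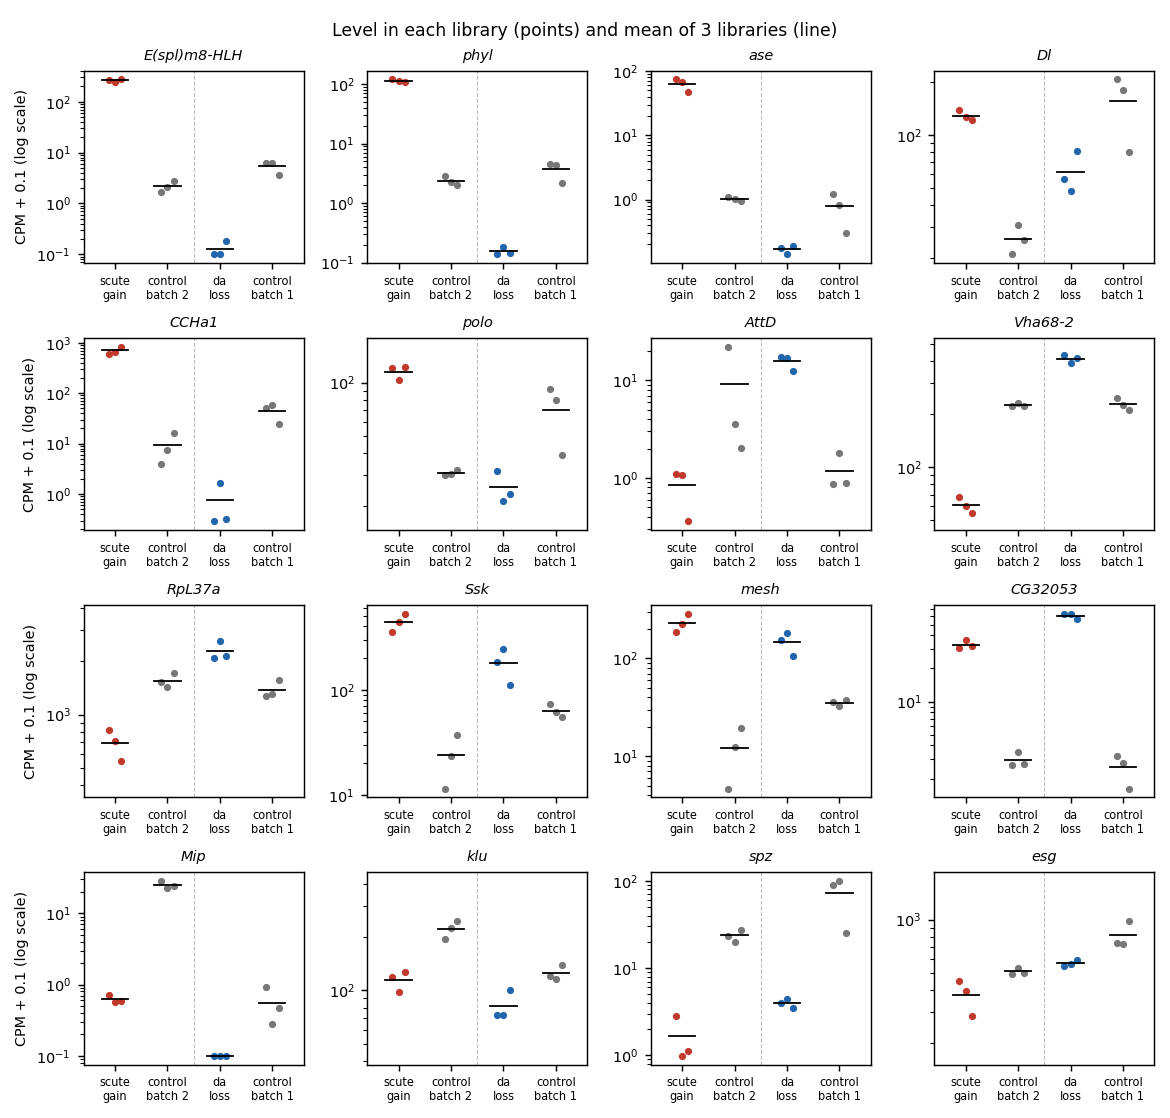
Points are single libraries of 16 genes in CPM plus 0.1 on a log axis, lines are means of 3 libraries, and scute libraries stand left of control libraries of batch 2, and da knock-down libraries left of control libraries of batch 1. E(spl)m8-HLH, phyl and ase stand high in scute libraries and low in knock-down libraries, mesh and Ssk stand above their controls in both, and spz stands below them in both.

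Genes of cell division rose with scute and fell with da loss. Of 35 mitosis genes tested, 33 had a positive difference and 26 rose with scute and fell with da loss, with medians of 1.10 with scute and -1.09 with da loss. polo, the mitotic kinase, read 121, 103 and 122 CPM in scute libraries and 29.9, 30.5 and 31.8 CPM in controls of batch 2, and 31.6, 21.4 and 23.5 CPM in knock-down libraries and 92, 79.9 and 38.7 CPM in controls of batch 1. The scute libraries all lay above their controls and the knock-down libraries all below theirs, and the difference was 3.37 (95% interval 2.71 to 4.04, adjusted p = 2.05e-07). CycB, the mitotic cyclin, changed by 2.82 with scute and -1.64 with da loss, asp, of the spindle pole, by 2.85 with scute and -1.95 with da loss, and tum, of cytokinesis, by 2.68 with scute and -1.68 with da loss. stg, the Cdc25 phosphatase that starts mitosis, changed by 1.73 with scute and -0.98 with da loss. fzr had the only negative difference of the list. This activator of the anaphase-promoting complex at mitotic exit and in endocycles read 87.8, 80.6 and 73.5 CPM in scute libraries and 51.8, 76.6 and 71.9 CPM in controls of batch 2, and 95.2, 123 and 113 CPM in knock-down libraries and 35.6, 45.7 and 45.6 CPM in controls of batch 1. fzr rose with da loss, at 1.38 ± 0.16 (SE, adjusted p = 1.07e-05), and its scute change was not called (adjusted p = 0.187, and 0.0493 with a stricter filter on low counts). Of 28 genes of G1/S and DNA replication, 22 had a positive difference and 12 rose with scute and fell with da loss. CycE, the S-phase cyclin, was called with scute, at 3.81 ± 0.30 (SE, adjusted p = 1.52e-08), and had a log2 change of -0.45 with da loss (adjusted p = 0.393). Control replicate 3 of batch 1 was low for mitosis genes, and without it 33 of 35 again had a positive difference and 29 moved oppositely. Without scute replicate 3 the numbers were 33 and 22. For replication genes, 5 to 15 moved oppositely when single libraries were left out, fewest without control replicate 1 of batch 1 and without knock-down replicate 2, and 6 without control replicate 2 of batch 1.

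The Enhancer of split complex lies on chromosome 3R, from position 25997621 to 26049911 of build BDGP6.28, and holds HES repressors, Bearded family genes and neighbours in 1 block. Its genes did not move together. E(spl)m8-HLH read 270.1, 249 and 275 CPM in scute libraries and 1.58, 2.01 and 2.72 CPM in controls of batch 2, and 0, 0 and 0.0859 CPM in knock-down libraries and 6.16, 6.07 and 3.54 CPM in controls of batch 1. The log2 change was 6.97 ± 0.27 (SE, adjusted p = 7.25e-12) with scute and -7.50 ± 0.51 (SE, adjusted p = 2.50e-08) with da loss, and the difference was 14.48 (95% interval 13.41 to 15.54, adjusted p = 2.14e-12). Only 2 counts came from the knock-down libraries and 505 from controls of batch 1, a level 199-fold lower with a counting interval of 54.7 to 1645. E(spl)mgamma-HLH changed by 6.01 with scute and -3.68 with da loss, E(spl)mdelta-HLH by 5.20 with scute and -2.57 with da loss, E(spl)m7-HLH by 5.27 with scute and -1.16 with da loss, and the Bearded family genes E(spl)m4-BFM and E(spl)m6-BFM by 5.00 with scute and -5.25 with da loss and by 3.81 with scute and -1.79 with da loss.

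Other members of the complex fell with scute. E(spl)mbeta-HLH read 153, 121 and 108 CPM in scute libraries and 457, 460 and 507 CPM in controls of batch 2, and 1059, 1031 and 832 CPM in knock-down libraries and 602, 548 and 803 CPM in controls of batch 1. It fell with scute, and its difference was -2.48 (95% interval -3.03 to -1.93, adjusted p = 7.03e-07). E(spl)m3-HLH fell with scute too, at -1.78, with 0.52 for da loss (adjusted p = 0.102), and E(spl)malpha-BFM changed by -1.83 with scute and 0.58 with da loss. With da loss the changes were near the threshold, at adjusted p = 0.0327 for E(spl)mbeta-HLH and 0.0471 for E(spl)malpha-BFM. For E(spl)mbeta-HLH the call of the rise was lost without control replicate 1 or 2 of batch 1, without knock-down replicate 1 or 2 and without scute replicate 2 (adjusted p 0.0611 to 0.165). For E(spl)malpha-BFM it was lost without any of 11 of the 12 libraries (adjusted p 0.053 to 0.229). Outside the complex, the HES gene dpn changed by 5.34 with scute and -2.04 with da loss with 59.28% of its exon bases shared with an antisense gene, and Hey by 5.09 with scute. Hey had 0 counts in knock-down libraries and 95 in controls of batch 1, which is at least 24.9-fold lower. Hairy (h) rose in both, by 0.75 with scute and 0.82 with da loss.

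**Figure D3:**
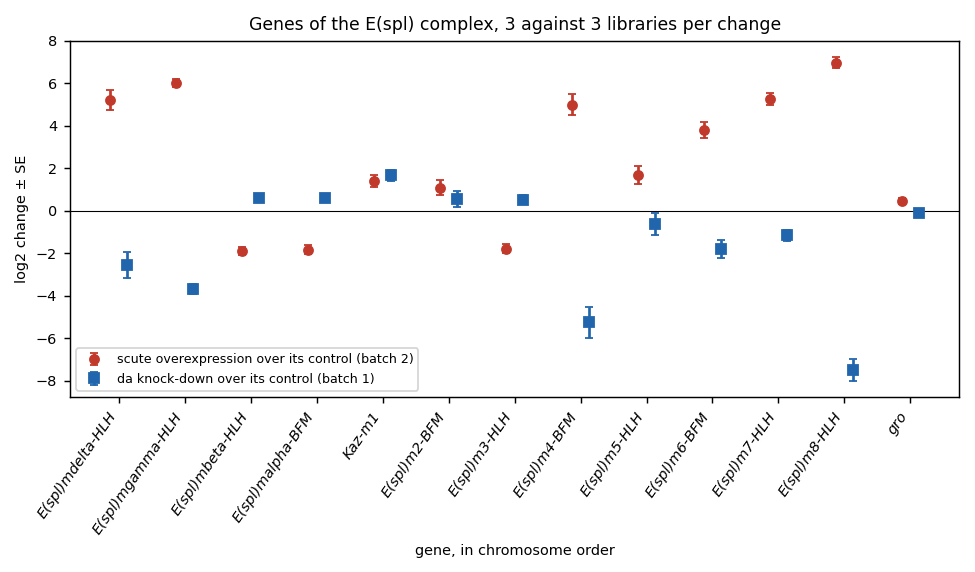
Genes of the Enhancer of split complex in chromosome order run along the horizontal axis, with log2 changes and their standard errors on the vertical axis for scute (against controls of batch 2) and da knock-down (against controls of batch 1). m8 shows 6.97 with scute and -7.50 with da loss, and mbeta shows -1.90 with scute and 0.58 with da loss.

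Dl, which encodes a ligand of Notch, was called higher with scute and lower with da loss. Dl read 138, 126 and 121 CPM in scute libraries and 20.9, 30.6 and 25.4 CPM in controls of batch 2, and 56.2, 48.3 and 81.2 CPM in knock-down libraries and 207, 181 and 79.6 CPM in controls of batch 1. Scute libraries lay above their controls, and knock-down libraries overlapped control replicate 3. The da loss call of Dl (adjusted p = 0.0137) was lost without control replicate 1 or 2 of batch 1 or knock-down replicate 1 or 2 (adjusted p 0.0502 to 0.0767). Its difference was 3.66 (95% interval 2.58 to 4.74, adjusted p = 1.77e-05). Su(H), the DNA-binding partner of Notch, rose with scute at 1.22 ± 0.14 (SE, adjusted p = 1.25e-06) and had -0.21 with da loss (adjusted p = 0.373).

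On the other side, many ribosomal protein genes and nuclear genes of oxidative phosphorylation fell with scute and rose with da loss. Of 90 ribosomal protein genes tested, 83 had a negative difference (18.9% of all genes did), 83 fell with scute and 59 rose with da loss, with medians of -0.99 with scute and 0.55 with da loss. RpL37a, of the large ribosomal subunit, read 813, 707 and 543 CPM in scute libraries and 1520, 1440 and 1707 CPM in controls of batch 2, and 2078, 2607 and 2130 CPM in knock-down libraries and 1269, 1302 and 1563 CPM in controls of batch 1. Both comparisons separated, with log2 changes of -1.18 ± 0.17 (SE, adjusted p = 1.62e-05) with scute and 0.72 ± 0.17 (SE, adjusted p = 0.00531) with da loss. RpL29 changed by -1.17 with scute and 0.76 with da loss and RpS20 by -1.09 with scute and 0.70 with da loss. The rises with da loss were small and their count moved with single libraries. The ribosomal protein genes that fell with scute and rose with da loss numbered 22 without control replicate 1 of batch 1, 11 without control replicate 2, 71 without control replicate 3 and 17 without knock-down replicate 2, while 83 or 84 had a negative difference with any library left out. Ribosomal protein genes took 15.5% to 20% of assigned reads in scute libraries and 24.4% to 27.5% in controls of batch 2, and 35.9% to 38.9% in knock-down libraries and 31.8% to 36.9% in controls of batch 1. The shares of batch 1 overlapped, since control replicate 3 stood at 36.9%. Because these shares are large, libraries were also scaled without ribosomal protein and mitochondrial genes. Their median was then 0.54 with da loss, and with DESeq2 size factors the medians were -0.98 with scute and 0.57 with da loss.

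Nuclear genes of oxidative phosphorylation did likewise, with a negative difference for 55 of 76 and medians of -0.50 with scute and 0.44 with da loss. The listed genes took 0.783% to 0.881% of assigned reads in scute libraries and 0.901% to 0.996% in controls of batch 2. In batch 1 the shares overlapped, at 1.46% to 1.67% in knock-down libraries and 1.29% to 1.6% in controls. Of the 76, 30 fell with scute and rose with da loss, and 16 to 34 did with single libraries left out, fewest without knock-down replicate 1 or 2. It was 19 without control replicate 2 and also 19 without control replicate 3 of batch 1. ATPsynB, of the ATP synthase stalk, read 152, 145 and 154 CPM in scute libraries and 279, 274 and 323 CPM in controls of batch 2, and 1310, 1391 and 1172 CPM in knock-down libraries and 863, 751 and 834 CPM in controls of batch 1. The libraries separated in both and the difference was -1.62 (95% interval -1.99 to -1.25, adjusted p = 1.10e-06). UQCR-C1, of complex III, changed by -0.88 with scute and 0.60 with da loss. Of 24 transcripts of the mitochondrial genome, 16 had a negative difference and 15 fell with scute, with medians of -0.72 with scute and 0.48 with da loss. Mitochondrial transcripts took 17.3% to 18.6% of assigned reads in scute libraries and 19.5% to 23.5% in controls of batch 2. Their shares overlapped in batch 1, at 12.6% to 12.8% in knock-down libraries and 10.9% to 14.2% in controls. With da loss 4 rose, and 3 of them fell with scute. With single libraries left out, 0 to 6 rose with da loss, fewest without control replicate 2 of batch 1 or knock-down replicate 2, and 1 without control replicate 3 of batch 1.

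**Figure D4:**
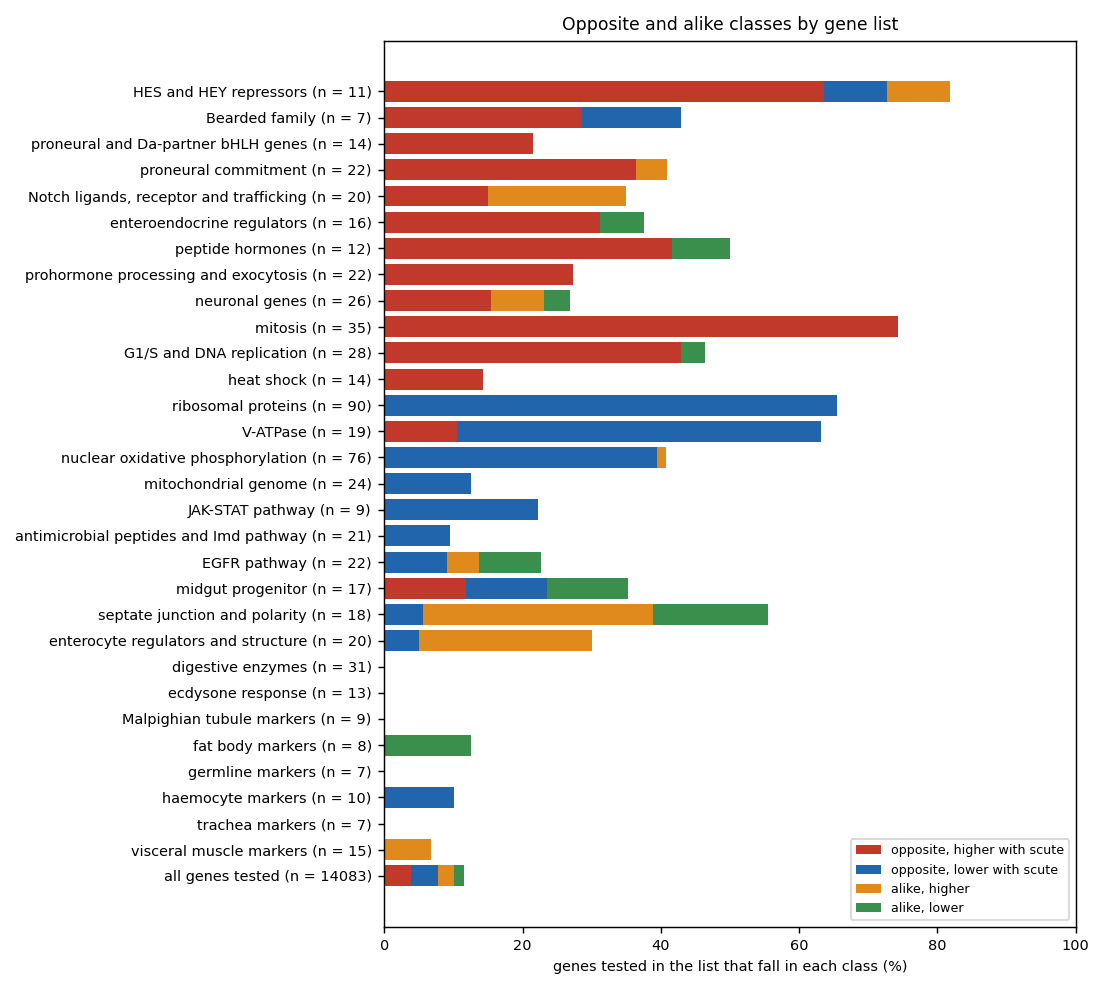
Bars give the percentage of tested genes in each of 30 gene lists and over all genes tested that moved oppositely (higher or lower with scute) or alike (higher or lower in both). Mitosis genes, with 26 of 35 opposite and higher with scute, and ribosomal protein genes, with 59 of 90 opposite and lower, compare with 3.78% and 4.03% of all genes.

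The proton pump of lysosomes and other acidic compartments, the V-ATPase, fell with scute for 10 of 19 subunit genes tested and rose with da loss for 14, and 13 had a negative difference. Together they took 0.3% to 0.381% of assigned reads in scute libraries and 0.315% to 0.324% in controls of batch 2, which overlapped. In batch 1 it was 0.42% to 0.532% in knock-down libraries and 0.327% to 0.398% in controls. Genes for alternative forms of the same subunits went the other way. Vha68-2, which encodes the catalytic subunit, read 67.4, 60.4 and 54.8 CPM in scute libraries and 222, 231 and 221 CPM in controls of batch 2, and 432, 386 and 416 CPM in knock-down libraries and 245, 224 and 211 CPM in controls of batch 1. Groups were apart both times and the difference was -2.74 (95% interval -3.05 to -2.44, adjusted p = 4.47e-10). Its paralogue Vha68-1 read 79.1, 86.1 and 115 CPM in scute libraries and 5.05, 9.7 and 7.54 CPM in controls of batch 2, and 0.71, 1.28 and 0.816 CPM in knock-down libraries and 3.09, 2.42 and 1.72 CPM in controls of batch 1. Vha68-1 rose with scute and its difference was 5.02 (95% interval 4.03 to 6.01, adjusted p = 1.97e-07). Its fall with da loss (adjusted p = 0.0159) was lost without control replicate 1 of batch 1 or knock-down replicate 1 or 3 (adjusted p 0.0551 to 0.0757). The membrane subunit gene Vha100-2 changed by -1.65 with scute and 0.83 with da loss, and its paralogue Vha100-1 by 0.36 with scute and -0.44 with da loss. The scute call of Vha100-1 was lost with any 1 of the 12 libraries left out (adjusted p 0.0552 to 0.409), and its da loss call without control replicate 1 or 2 of batch 1 or knock-down replicate 2 (0.0971 to 0.155). VhaM9.7-a rose with scute by 2.72. Paralogues share sequence, and reads mapping to both were not counted.

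**Figure D5:**
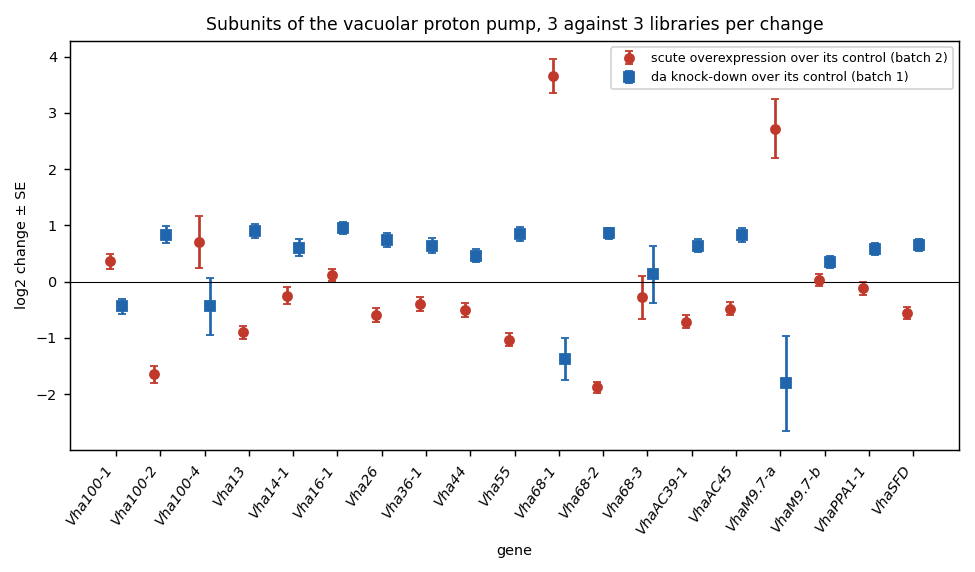
The 19 tested V-ATPase subunit genes are listed with log2 changes and standard errors for scute (against controls of batch 2) and da knock-down (against controls of batch 1). Vha68-2 lies at -1.88 with scute and 0.86 with da loss, while its paralogue Vha68-1 lies at 3.65 with scute and -1.37 with da loss.

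Of 21 antimicrobial peptide and Imd pathway genes tested, 5 fell with scute (21.2% of all genes did) and 2 rose with da loss (9.44% of all genes did), which is near the share over all genes. AttD and Rel did both. With da loss 2 others fell (8.39% of all genes did). The 2 that rose became 4 with DESeq2's test, with halved counts of batch 2, with the 12 libraries alone and without knock-down replicate 3. With replicate number as a block they became 5. AttD, an attacin, read 1.01, 0.973 and 0.258 CPM in scute libraries and 22.2, 3.45 and 1.93 CPM in controls of batch 2, with control replicate 1 of batch 2 far above the other controls. In knock-down libraries it read 17.3, 17.1 and 12.3 CPM, against 0.758, 1.7 and 0.793 CPM in controls of batch 1. The difference of AttD was -7.46 (95% interval -9.77 to -5.14, adjusted p = 3.12e-05). Rel, the NF-kappaB factor of the Imd pathway, read 168, 129 and 141 CPM in scute libraries and 1427, 828 and 985 CPM in controls of batch 2, and 2150, 1685 and 1509 CPM in knock-down libraries and 989, 846 and 986 CPM in controls of batch 1. Rel separated in both comparisons, with a difference of -3.81 (95% interval -4.44 to -3.18, adjusted p = 3.15e-08). PGRP-SD, a peptidoglycan recognition protein, changed by -4.65 with scute and 1.39 with da loss, with the rise not called (adjusted p = 0.055, and 0.0166 with replicate number as a block). That rise was also called without control replicate 1 of batch 2, knock-down replicate 3 or scute replicate 3 (adjusted p 0.0396, 0.0219 and 0.0406). The difference was positive for 2 of the 21 genes and negative for 6. Ets21C, a stress-induced ETS factor, had a difference of -4.15 (95% interval -4.95 to -3.34, adjusted p = 1.68e-07), with 28.33% of its exon bases antisense to another gene. Cyp6a14, a cytochrome P450, read 4.4, 3.72 and 2.66 CPM in scute libraries and 46.7, 31.9 and 33.8 CPM in controls of batch 2, and 195, 217 and 177 CPM in knock-down libraries and 28.5, 33.1 and 49.9 CPM in controls of batch 1. Its difference was -5.78 (95% interval -6.45 to -5.12, adjusted p = 5.84e-10). CG6465, CG4267 and CG9360 changed by -4.19 with scute and 2.76 with da loss, by -4.18 with scute and 2.39 with da loss and by -3.91 with scute and 2.17 with da loss.

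Genes that rose in both comparisons included mesh, Ssk and Tsp2A of the smooth septate junction, the seal between gut epithelial cells. They belong to a list of 20 enterocyte genes, of which 10 rose with scute, 7 rose with da loss and 5 rose in both. That list summed to 2099 to 2370 CPM in scute libraries and 1220 to 1324 CPM in controls of batch 2, and to 2505 to 2902 CPM in knock-down libraries and 1851 to 1993 CPM in controls of batch 1. The sums did not overlap in either comparison. As shares of assigned reads the list took 0.313% to 0.369% in scute libraries and 0.139% to 0.147% in controls of batch 2. In batch 1 the shares lay closer together, at 0.172% to 0.185% in knock-down libraries and 0.159% to 0.165% in controls. The part of enterocytes in these rises was not tested. mesh read 186, 224 and 287 CPM in scute libraries and 4.55, 12.2 and 19.3 CPM in controls of batch 2, and 156, 181 and 105 CPM in knock-down libraries and 35.5, 32.8 and 37.3 CPM in controls of batch 1. All knock-down libraries and all scute libraries lay above their own controls. Ssk changed by 4.19 with scute and 1.51 with da loss and Tsp2A by 4.56 with scute and 1.71 with da loss, and both changes were called for each gene. The rise of Ssk with da loss was lost without knock-down replicate 2 (adjusted p = 0.0523). These 3 genes also rose more with scute, with differences of 2.20, 2.69 and 2.85, all called. Of 18 septate junction and polarity genes, 6 rose in both and 3 fell in both, of which 1 was left without control replicate 3 of batch 1 or knock-down replicate 1. cora, of the septate junction, changed by 0.54 with scute and 0.70 with da loss, and baz, the fly Par-3, by -1.15 with scute and -0.70 with da loss. aPKC, the kinase that works with baz, was called with da loss only, at 1.08 ± 0.09 (SE, adjusted p = 4.11e-07), with 0.10 for scute (adjusted p = 0.431).

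Genes named for large rises in both were mostly uncharacterised. CG32053 read 30.5, 35.8 and 32 CPM in scute libraries and 2.55, 3.38 and 2.63 CPM in controls of batch 2, and 62.8, 62.1 and 55.8 CPM in knock-down libraries and 3.09, 2.66 and 1.52 CPM in controls of batch 1. It changed by 3.52 with scute and 4.63 with da loss. CG9568 changed by 4.12 with scute and 2.84 with da loss and CG42458 by 2.56 with scute and 4.13 with da loss. CR6434 read 0.261, 0.187 and 0.248 CPM in scute libraries and 0.0579, 0.0332 and 0.0135 CPM in controls of batch 2, and 53.7, 69.2 and 54.3 CPM in knock-down libraries and 0.189, 0.12 and 0.033 CPM in controls of batch 1, so that its rise was called in both but its level with scute stayed under 0.3 CPM. Ugt37D1, a glycosyltransferase, changed by 2.53 with scute and 2.80 with da loss, and its difference of -0.28 was not called. Control replicate 3 of batch 1 read higher than the other controls of that batch, and without it the difference was -0.93 (adjusted p = 0.00543). sug, a zinc finger gene induced by dietary sugar, changed by 3.59 with scute and 2.52 with da loss.

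Progenitor genes moved in several ways. Of 17 tested, esg and klu fell in both, Dl and mira rose with scute and fell with da loss, and Sox100B and Stat92E fell with scute and rose with da loss. Of 22 EGFR pathway genes, aos and sty fell in both, rho rose in both, and drk and Ets21C fell with scute and rose with da loss. The da loss calls of Dl, Sox100B, Stat92E and drk were each lost with some library left out (adjusted p up to 0.0767, 0.0565, 0.122 and 0.103). klu, a zinc finger repressor of enteroblasts, read 119, 98.4 and 127 CPM in scute libraries and 195, 225 and 246 CPM in controls of batch 2, and 72.5, 72.1 and 101 CPM in knock-down libraries and 121, 116 and 139 CPM in controls of batch 1. Groups did not overlap, and its changes were -0.95 ± 0.15 (SE, adjusted p = 5.51e-05) with scute and -0.62 ± 0.15 (SE, adjusted p = 0.00839) with da loss. sty, an intracellular inhibitor of receptor tyrosine kinases, changed by -1.47 with scute and -1.28 with da loss, and aos, the secreted inhibitor of the EGF receptor, by -2.19 with scute and -1.34 with da loss. The difference of aos was not called at -0.85 (95% interval -1.58 to -0.11, adjusted p = 0.0685). It was called with replicate number as a block in batch 1 only (adjusted p = 0.0406), with DESeq2 (0.0475), and without control replicate 1 of either batch, knock-down replicate 2 or scute replicate 1 (0.0112 to 0.0496). esg itself, the gene that defines the sorted cells, fell in both at -0.44 with scute and -0.52 with da loss. The scute call of esg was lost without control replicate 2 of batch 2 or scute replicate 3 (adjusted p 0.0673 and 0.0546), and the da loss call without control replicate 3 of batch 1 or knock-down replicate 1 or 2 (0.0513 to 0.108). spz, which encodes the ligand of Toll, read 2.75, 0.884 and 1.02 CPM in scute libraries and 23.1, 20 and 27.6 CPM in controls of batch 2, and 3.85, 4.28 and 3.35 CPM in knock-down libraries and 90.5, 100.2 and 25.2 CPM in controls of batch 1. spz changed by -3.93 with scute and -4.23 with da loss. Mip, a peptide hormone, read 0.608, 0.462 and 0.486 CPM in scute libraries and 28.5, 22.5 and 24 CPM in controls of batch 2. It had 0 counts in knock-down libraries against 43 in controls of batch 1, at least 11.3-fold lower. wun2, a lipid phosphate phosphatase, changed by -3.02 with scute and -1.99 with da loss and CG6357 by -3.55 with scute and -4.26 with da loss.

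Some genes were called in 1 comparison only, and the difference between the changes was called for 2849 of 4325 genes called with scute alone and 641 of 891 called with da loss alone. nrv3, a beta subunit of the sodium pump, read 676, 765 and 1036 CPM in scute libraries and 38.8, 50.6 and 42.7 CPM in controls of batch 2, with a scute change of 4.23 ± 0.25 (SE, adjusted p = 7.63e-10) and a da loss change of -0.32 (adjusted p = 0.397). vn, a neuregulin-like EGF receptor ligand, fell with scute at -3.25 ± 0.24 (SE, adjusted p = 5.60e-09) and had -0.17 with da loss (adjusted p = 0.674). Egfr, the receptor, fell with da loss at -1.91 ± 0.22 (SE, adjusted p = 8.59e-06) and had -0.12 with scute (adjusted p = 0.696). The difference was -3.08 for vn and 1.79 for Egfr, both called. Tektin-C, of axonemal filaments, read 0.374, 0.24 and 0.258 CPM in knock-down libraries and 11, 12.4 and 19.7 CPM in controls of batch 1, with a difference of 5.19 (95% interval 4.40 to 5.98, adjusted p = 1.14e-08). piwi, of the germline small RNA pathway and 1 of the germline markers summed above, read 0.0747, 0.08 and 0.129 CPM in knock-down libraries and 6.28, 4.33 and 1.85 CPM in controls of batch 1, and its scute change was -0.34 (adjusted p = 0.618). CG13323 rose with da loss alone at 4.81 ± 0.36 (SE, adjusted p = 8.69e-08), and CG30419 with scute alone at 5.18 ± 0.35 (SE, adjusted p = 2.30e-09).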

How the data were processed

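Messenger RNA of sorted esg+ cells was sequenced in 2 batches, single reads of 50 nt in batch 1 and pairs of 150 nt in batch 2. The authors deposited raw read counts per gene, made with featureCounts 2.0.2 on exons of BDGP6.28 with no strand option, per the file headers. Multi-mapping and ambiguous reads were not counted, and each mate of batch 2 added 1 count. The aligner is named by a folder only. A deposited workbook holds the authors' log2 fold changes and each adjusted p-value, made with DESeq2 per its title sheet, and its 17 columns of per-sample values were not used. The authors' log2 values served for symbols and a comparison of classes.

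All 17 libraries were fitted in R 4.3.3 with edgeR 4.0.16 (quasi-likelihood, filterByExpr by group, TMM, 1 mean per group), with limma 3.58.1 and DESeq2 1.42.0 installed. The biological coefficient of variation was 0.212. The difference was the scute contrast minus the da loss contrast. Calls used a Benjamini-Hochberg adjusted p under 0.05. Levels are CPM after TMM, and SE is the log2 change divided by the root of F. TMM factors were 1.49 to 1.558 in scute libraries and 1.102 to 1.155 in controls of batch 2. They were 0.6116 to 0.6872 in knock-down libraries and 0.8145 to 0.891 in controls of batch 1. Scaling thus raised levels in knock-down libraries, and lowered those in scute libraries, more than in their controls. P-values measure spread between separate pools of guts. Of the 17807 identifiers, 9986 took a symbol from the deposited workbook and 7762 from a reference table. Same-numbered libraries of knock-down and control in batch 1 deviated together (r = 0.1038, 0.1002 and 0.1726), so these numbers were taken to pair them, and blocked fits were run as alternatives.

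The genes and 30 lists were chosen with earlier results of these data known. Named genes are da, sc, emc and 15 markers, the 6 genes of each class whose smaller change was largest, up to 5 called members per list, and for genes called in 1 comparison 4 per direction, with a level minimum of 10 CPM outside the lists, and 32 more chosen after their values were seen (among them E(spl)mbeta-HLH, E(spl)m3-HLH, E(spl)m7-HLH, CycE, h, NPF, vn, nrv3, fzr, wor, insb, pon, stg, piwi, aPKC and Vha100-1). The choice by class took only genes whose libraries overlapped in neither comparison. For genes called in 1 comparison it took those without overlap in that comparison. Separation of these genes is thus part of the rule and not a result. The fit was tested on simulated data.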

Additional observations from a re-analysis of the deposited data

How the results depend on the processing

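With single libraries left out, the difference was called for 4616 to 4953 genes in place of 5024, higher for 2021 to 2266 and lower for 2476 to 2840. Scute changes numbered 5303 to 5975, da loss changes 1687 to 2634, genes moved oppositely 737 to 1113 and genes moved alike 363 to 537. Genes higher with scute and lower with da loss numbered 373 to 552, those lower with scute and higher with da loss 358 to 578, those higher in both 229 to 318 and those lower in both 134 to 259. The 358 without control replicate 2 of batch 1 was the only of these counts more than 1.5 times away from its value over all libraries. Without the same control, 3 others came close to that limit. They were 134 genes lower in both in place of 200, 737 moved oppositely in place of 1099 and 1687 da loss changes in place of 2511. The cause was not tested. The other settings were DESeq2 size factors, DESeq2's test, 2 filters on low counts, fits of 12 libraries or of each batch, halved counts of batch 2, and scaling without ribosomal protein and mitochondrial genes. No named gene changed direction with a call. Each change of a named gene (scute, da loss or difference) was compared with each setting, and of these 10900 comparisons 244 lost a call and 49 gained one. Of the 168 named genes, 63 had a changed call in some setting. With replicate number as a block, 496 of 532 and 537 of 567 oppositely moved genes and 313 of 321 and 183 of 200 genes moved alike kept both calls. With the block in batch 1 only, a fit added after seeing the data, these were 518, 552, 316 and 198. In batch 2 same-numbered libraries did not deviate together (r = -0.04717, -0.0144 and -0.1069). The stricter filter kept 7479 genes and shifted the median scute change by 0.11. In the authors' deposited table, 1369 genes moved oppositely and 657 alike. Levels under about 1 CPM in batch 1 limit what could be called there.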

Other observations

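Of 26 neuronal genes tested, 19 rose with scute (21.0% of all genes did), 6 fell with da loss (8.39%) and 18 had a positive difference (16.8%). stai, which encodes the microtubule regulator stathmin, changed by 5.03 with scute and -1.77 with da loss, and Sema1a, an axon guidance ligand, by 2.74 with scute and -0.77 with da loss. Of 13 genes of the ecdysone response, 9 rose with scute and 8 had a positive difference. Among them the nuclear receptor gene Hr3 rose by 2.29 with scute and Eip75B fell by 1.06 on the log2 scale, with a change of 0.58 with da loss (adjusted p = 0.0576). Of 9 JAK-STAT genes, 4 had a negative difference (18.9% of all genes did). The cytokine gene upd3 changed by -2.19 with scute and 0.61 with da loss, and its da loss call was lost without control replicate 2 or 3 of batch 1 or knock-down replicate 1 (adjusted p 0.0819 to 0.192). Of the 22 EGFR pathway genes, 10 had a positive and 5 a negative difference (16.8% and 18.9% of all genes did).

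Over all genes tested the difference was higher for 16.8% and lower for 18.9%. Of 20 enterocyte genes, 7 had a positive and 3 a negative difference, and 5 were lower without control replicate 3 of batch 1. Of 31 digestive enzyme genes, 1 had a positive and 4 a negative difference, and 14 were lower without control replicate 1 of batch 1. Of 14 heat shock genes, 9 rose with scute (21.0% of all genes did), and without scute replicate 3, whose sum stood apart, 2 did. The difference was higher for 7 and lower for 1. Of 17 progenitor genes 5 were higher and 5 lower for the difference, of 20 Notch ligand, receptor and trafficking genes 7 and 7, of 14 proneural bHLH genes 4 and 1, and of 7 Bearded family genes 3 and 1. Of 11 HES and HEY genes 8 were higher and 2 lower. Among markers of other tissues, the difference was higher and lower for 1 and 2 of 15 muscle genes, 2 and 1 of 10 haemocyte genes and 2 and 1 of 7 tracheal genes. It was called higher for 3 of 7 germline genes and 2 of 9 Malpighian tubule genes, and lower for 1 of 8 fat body genes. With so few genes per list, these counts are not read as results about the tissues.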
